A study of Mus musculus with 24 samples.

Results

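The 8 genes of MHC class I antigen presentation described here are the heavy chains H2-K1, H2-D1 and H2-T23, the light chain B2m, the peptide transporter subunits Tap1 and Tap2, the loading protein Tapbp and the transcriptional regulator Nlrc5. They were found by gene symbol, matched to the Ensembl identifiers of the count files, and make up 8 of the 55385 genes counted in every library. RNA was sequenced from the gastrocnemius, a calf muscle, of female C57BL/6J mice, with 1 library from each of 24 mice. The 6 groups of 4 mice were young sham, young GFP, old GFP and old AAV-Kl, and at the highest age oldest-old GFP and oldest-old AAV-Kl. Young mice were 3–6 months of age, old mice 21–24 months and oldest-old mice 27–29 months. AAV-Kl is an adeno-associated virus of serotype AAV8 that carries murine Klotho behind the LP-1 promoter, which is active in the liver, so the transgene was directed to the liver and not to the muscle that was sequenced. GFP mice received a vector with green fluorescent protein in place of Klotho, and GFP mice therefore share the injection and the vector with AAV-Kl mice. Mice without muscle injury received 3e8 vector genomes through the tail vein and were euthanized 14 days later. The published methods describe the sequenced mice of the other groups and do not mention the young sham mice, which are known here from their labels. Female sex is stated there for the injected mice. The sham treatment of the young sham mice is not given in the sources used here.

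MHC class I molecules carry peptides from proteins made inside the cell to the cell surface, where CD8 T cells and natural killer cells read them. Peptides cut by the proteasome are pumped into the endoplasmic reticulum by the TAP1 and TAP2 transporter and are loaded, with the help of tapasin, onto a heavy chain paired with beta-2 microglobulin. Interferons raise the transcription of all parts of this pathway, in part through NLRC5, and mature muscle fibers are known for low class I expression in the resting state. In bulk muscle RNA, fewer cells of a type and less RNA per cell cannot be told apart.

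All 8 genes are protein coding, and 6 of them lie in the MHC region of chromosome 17 of the mouse genome build GRCm38. H2-K1 (ENSMUSG00000061232.16) spans chr17:33996017-34000347 on the minus strand, and H2-D1 (ENSMUSG00000073411.12) spans chr17:35262730-35267499 on the plus strand. The non-classical heavy chain H2-T23 (ENSMUSG00000067212.8) spans chr17:36029773-36032855 on the minus strand. Tap1 (ENSMUSG00000037321.17, chr17:34187553-34197225), Tap2 (ENSMUSG00000024339.12, chr17:34203527-34216321) and Tapbp (ENSMUSG00000024308.15, chr17:33915899-33929292) lie on the plus strand. B2m (ENSMUSG00000060802.8) lies outside the MHC at chr2:122147686-122153083 on the plus strand, and Nlrc5 (ENSMUSG00000074151.13) at chr8:94434356-94527272 on the plus strand.

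Reads were counted without regard to strand, so some bases of these genes cannot be told apart from a neighbour. Tapbp shares 29.02% of its exonic bases with Zbtb22 and the antisense gene Gm19412, and Tap2 shares 18.5% with the antisense genes Gm15821 and Gm20496. Tap1 shares 212 exonic bases, or 3.87%, with Psmb9 on the opposite strand. The heavy chains also resemble each other and other genes of their family. Of the distinct stretches of 50 bases in annotated transcripts, 9.63% in H2-K1, 12.8% in H2-D1 and 13.6% in H2-T23 also occurred in the same sense in a transcript of another gene, while B2m and Nlrc5 had 0. Over 100 bases these shares were 0.957%, 3.59% and 3.15%. The read length is not given in the sources used here, and the values of the 3 heavy chains are uncertain to this extent.

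Sequences upstream of the start sites are shown because the 8 genes varied together from mouse to mouse, as described below. Promoter windows of RefSeq (build GRCm38.p6) matched 6 of the 8 genes, all but Tap2 and Nlrc5. The 250 bases before each start site were searched on both strands for the letters AANNGAAA (the core bound by interferon regulatory factors), GGGATTCCC (NF-kappaB), TTCNNNGAA (STAT proteins), TGACGC (the X2 box of MHC promoters) and CCAAT (the Y box, bound by NF-Y). No matches overlapped another motif. The stretches before the first annotated exon base of a classical heavy chain, H2-K1 (chr17:34000348-34000597, minus strand), and of the light chain, B2m (chr2:122147437-122147685, plus strand), are printed 5′ to 3′ with the matches in capitals:
H2-K1: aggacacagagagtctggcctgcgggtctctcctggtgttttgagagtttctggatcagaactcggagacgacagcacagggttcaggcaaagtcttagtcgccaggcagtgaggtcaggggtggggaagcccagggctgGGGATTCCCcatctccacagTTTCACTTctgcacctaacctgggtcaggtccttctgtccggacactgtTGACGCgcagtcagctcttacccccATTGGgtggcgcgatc
B2m: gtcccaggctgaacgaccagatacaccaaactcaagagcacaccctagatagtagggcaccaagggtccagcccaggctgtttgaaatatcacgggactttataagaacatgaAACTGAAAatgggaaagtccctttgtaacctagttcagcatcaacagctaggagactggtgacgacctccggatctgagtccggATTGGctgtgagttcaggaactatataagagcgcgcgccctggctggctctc
The H2-K1 stretch holds, in order, 1 GGGATTCCC, 1 AANNGAAA on the opposite strand, 1 TGACGC and 1 CCAAT on the opposite strand. Of the exact letters searched, the B2m stretch holds 1 AANNGAAA and, on the opposite strand, 1 CCAAT.

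The windows of H2-K1 and H2-D1 were identical at 166 of 190 bases (87.4%) when shifted by 60 bases without gaps. Around the GGGATTCCC letters, in capitals, 29 of 30 bases were the same (H2-K1, chr17:34000438-34000467, minus strand, and H2-D1, chr17:35262914-35262943, plus strand, within an annotated H2-D1 exon):
H2-K1: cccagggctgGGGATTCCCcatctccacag
H2-D1: cccagggctgGGGATTCCCcatctcctcag
GGGATTCCC was found in the windows of these 2 genes and in 0.301% of all 32851 RefSeq windows of the same length. Only these exact letters were searched, so other letters that NF-kappaB may bind were not looked for in any window. The windows of the 2 genes resemble each other, so their shared letters are not separate finds. TGACGC was also found in both, against 6.12% of all windows. AANNGAAA was present in 4 of the 6 windows (H2-K1, H2-D1, B2m and H2-T23) and in 21.3% of all windows, and CCAAT in 6 of the 6 and in 33.9% of all windows. The windows of H2-D1, Tap1 and Tapbp lay in annotated exons over all 250 bases, and that of H2-T23 over 154 bases. TTCNNNGAA was found in 0 of the 6 windows, against 7.02% of all. These are matches of letters and not measured binding sites.

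Reads on genes numbered 36415886 to 59733985 in a library (median 49486060.5), or 74.7% to 77.0% of its reads. Markers of skeletal muscle fibers, such as Acta1 and Myh4, were high in 24 of 24 libraries, with a summed level of 142300 to 203800 CPM (a gene's reads for each 1000000 reads on genes, after scaling between libraries). Lists of markers of other cells also differed between libraries. The summed level of 10 keratinocyte markers was above 50 CPM in young sham 4, young GFP 1 and 3 and old AAV-Kl 2. The summed level of 12 markers of T and natural killer cells was above 10 CPM in young sham 2, 3 and 4, young GFP 3 and oldest-old AAV-Kl 2. Markers of liver reached 1103 CPM in old GFP 1 and were next highest in old AAV-Kl 4. The labels give no sequencing batch or date. All 8 class I genes passed the filter on low counts, which left 17803 genes.

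Levels of different genes can be compared only per length, as TPM, the share of reads per base of exon scaled to a total of 1000000 in each library. Over the 24 mice, B2m had the highest level, with a mean of 437.5 TPM ± 236 (SD). The classical heavy chains followed at 93.0 ± 42.4 TPM for H2-D1 and 67.2 ± 37.6 TPM for H2-K1. Tapbp was at 18.7 ± 4.20 TPM and H2-T23 at 8.01 ± 3.73 TPM. The transporter subunits were lower, at 4.94 ± 1.58 TPM for Tap2 and 3.30 ± 2.69 TPM for Tap1, and Nlrc5 was lowest at 1.39 ± 1.10 TPM. Each step of this order held within 24 of 24 libraries except that of Tap2 over Tap1, which held in 23. B2m exceeded H2-D1 by 3.72 to 5.89 times within a library, whereas H2-D1 exceeded H2-K1 by only 1.13 to 1.67 times. These ratios depend on the length used, all annotated exon bases of a gene merged (860 for B2m, 2579 for H2-D1 and 2938 for H2-K1). Which transcripts the muscle made was not tested. Without regard to length, B2m had a mean of 143.4 CPM and H2-D1 91.3 CPM. Multimapping and ambiguous reads were not counted, so the levels of genes with shared bases are uncertain.

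**Figure D1:**
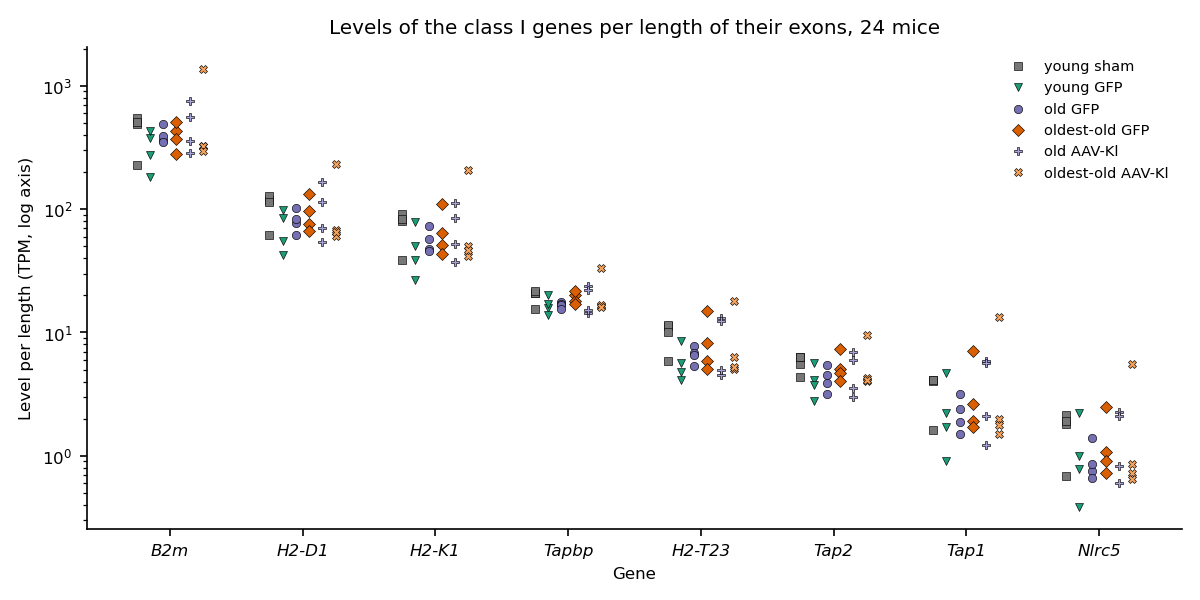
Level per length in TPM (vertical log axis) of the 8 class I genes, ordered by mean level, with 1 point for each of 24 mice and a symbol for each group. B2m has the highest mean, 437.5 TPM, and Nlrc5 the lowest, 1.39 TPM, and oldest-old AAV-Kl 2 is the highest point for each gene.

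The heavy chains varied from mouse to mouse within each group. H2-K1, a classical heavy chain that presents peptides to CD8 T cells, was at 45.0, 89.1, 99.2 and 88.7 CPM in young sham mice 1 to 4 and at 47.7, 59.3, 89.2 and 33.3 CPM in young GFP mice. Old GFP mice had 81.9, 55.3, 66.5 and 56.4 CPM and oldest-old GFP mice 69.9, 59.3, 49.3 and 108.1 CPM. The values were 45.8, 124.0, 90.9 and 62.2 CPM in old AAV-Kl mice and 46.3, 218.1, 56.8 and 55.2 CPM in oldest-old AAV-Kl mice. All 6 groups overlapped, and the highest of the 24 values, in oldest-old AAV-Kl 2, was 6.54 times the lowest, in young GFP 4.

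H2-D1, the other classical heavy chain, ran from 46.3 CPM in young GFP 4 to 216 CPM in oldest-old AAV-Kl 2, with a median of 81.8 CPM over the 24 mice. Its group means were 102 ± 26.9 CPM in young sham, 72.8 ± 23.8 in young GFP, 82.6 ± 13.9 in old GFP and 87.8 ± 20.5 in oldest-old GFP mice (SD, n = 4). They were 100.3 ± 46.0 CPM in old AAV-Kl and 102 ± 76.0 CPM in oldest-old AAV-Kl mice. H2-T23, a non-classical heavy chain that is read by natural killer cell receptors, ran from 5.0 to 18.7 CPM in the same 2 libraries. Its group means lay between 6.70 ± 1.93 CPM in young GFP and 10.5 ± 2.64 CPM in young sham mice.

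B2m encodes beta-2 microglobulin, the light chain that class I heavy chains share. It was at 77.6, 158, 176 and 160.1 CPM in young sham mice 1 to 4 and at 99.2, 131, 141 and 66.7 CPM in young GFP mice. Old GFP mice had 160.0, 122, 136 and 126 CPM and oldest-old GFP mice 138, 124, 93.8 and 146 CPM. The values were 102, 246, 174 and 125 CPM in old AAV-Kl and 106, 425, 108 and 101 CPM in oldest-old AAV-Kl mice. In all groups except oldest-old AAV-Kl, the mice with the highest and the lowest B2m were also those with the highest and the lowest H2-K1.

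The transporter subunits and Tapbp showed the same 2 extreme libraries. Tap1 was at 3.52, 8.44, 8.17 and 8.21 CPM in young sham mice and at 5.08, 3.76, 9.84 and 2.10 CPM in young GFP mice. Old GFP mice had 6.63, 4.05, 5.27 and 3.46 CPM and oldest-old GFP mice 5.33, 4.12, 3.67 and 12.97 CPM. Old AAV-Kl mice had 2.80, 12.1, 11.3 and 4.70 CPM and oldest-old AAV-Kl mice 3.09, 26.2, 4.18 and 3.92 CPM. Tap1 thus spread 12.5-fold over the 24 mice. Its partner Tap2 spread less, from 4.42 to 12.9 CPM or 2.93-fold, and Tapbp, which encodes tapasin, spread least, from 21.3 to 43.7 CPM or 2.06-fold.

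Nlrc5, which encodes the transcriptional activator of class I genes, was at 2.30, 5.83, 6.79 and 5.90 CPM in young sham mice and at 3.58, 2.68, 7.25 and 1.38 CPM in young GFP mice. Old GFP mice had 4.54, 2.52, 2.90 and 2.36 CPM and oldest-old GFP mice 3.36, 3.02, 2.40 and 7.12 CPM. Old AAV-Kl mice had 2.17, 7.27, 6.51 and 2.86 CPM and oldest-old AAV-Kl mice 2.33, 16.99, 2.80 and 2.21 CPM. These are 57 to 1035 reads per library, and the spread of 12.3-fold was close to that of Tap1.

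**Figure D2:**
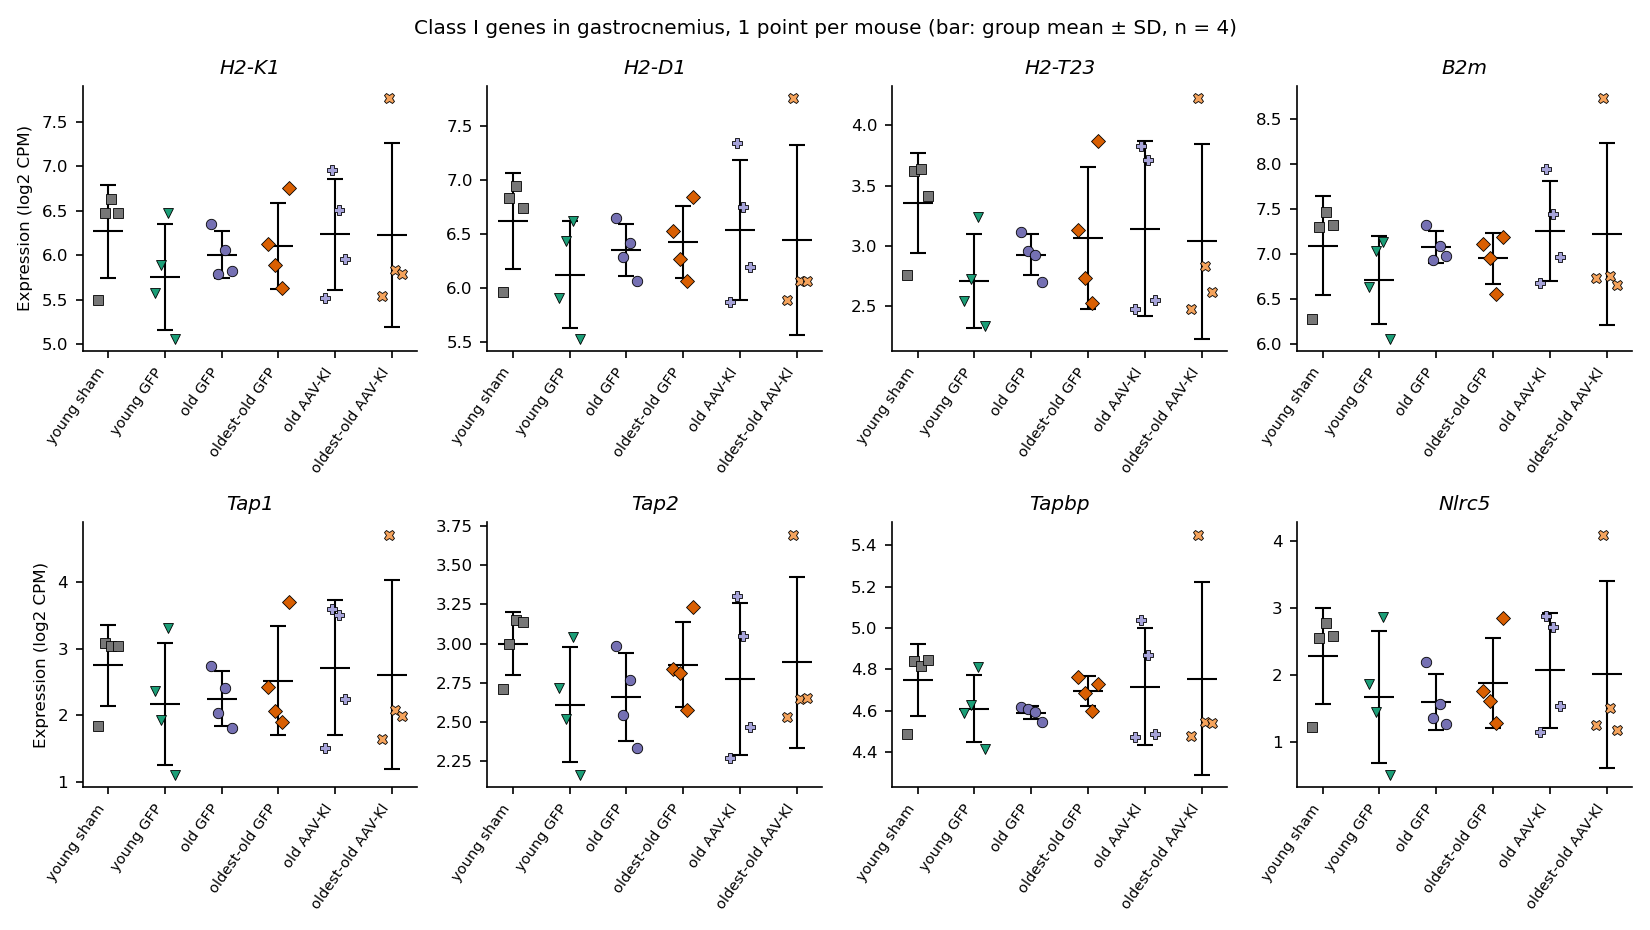
Expression in log2 CPM (vertical axis) of the 8 class I genes in the 6 groups (horizontal axis), with 1 point per mouse and bars for the group mean ± SD (n = 4). All groups overlap in each gene, and oldest-old AAV-Kl 2 is the highest point of each panel.

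Age was addressed by comparing the GFP groups. None of the 8 genes was called different between old GFP and young GFP mice, between oldest-old GFP and young GFP mice or between oldest-old GFP and old GFP mice (edgeR's quasi-likelihood test, Benjamini-Hochberg adjusted p under 0.05 over 17803 genes). In the same comparisons 4.7%, 14.9% and 0.00562% of all genes tested were called. At an unadjusted p under 0.05 the count was again 0 of 8 in each, against 19.1%, 29.8% and 12% of all genes, and DESeq2 called 0 of 8 as well. The 2 groups overlapped for 8 of 8 genes in each comparison, whereas 15.6%, 18.4% and 5.65% of all genes had groups that did not overlap.

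Between oldest-old GFP and young GFP mice the fitted log2 fold changes of the 8 genes were all above 0, with a median of 0.25 against 0.03 over all genes tested. H2-T23 had the highest, 0.42 (95% confidence interval -0.38 to 1.21, edgeR adjusted p = 0.506), and Tapbp the lowest, 0.08 (-0.27 to 0.43, edgeR adjusted p = 0.799). H2-K1 was at 0.32 (-0.58 to 1.22) and B2m at 0.20 (-0.61 to 1.01). The value was -0.27 for Tap1 and -0.37 for Nlrc5 in the fit without oldest-old GFP 4. Macrophage markers summed to 64.6 to 105.8 CPM in young GFP and 118.0 to 182.6 CPM in oldest-old GFP mice, without overlap, as for 18.4% of single genes. Markers of B and plasma cells had medians of 36.7 and 274.0 CPM. Markers of T and natural killer cells summed to 1.98 to 35.8 CPM and 1.90 to 5.24 CPM in these groups. Dendritic cell markers had medians of 9.99 and 9.76 CPM, and 0 of 8 class II genes had a fold change above 0. The part of these cells in the class I values was not tested. The 8 genes vary together between mice, so their common sign is not 8 separate observations. Between old GFP and young GFP mice 5 of 8 values were above 0, from -0.28 for Nlrc5 to 0.31 for B2m, with a median of 0.10. Between oldest-old GFP and old GFP mice 7 of 8 were above 0, from -0.11 for B2m to 0.43 for Tap1, with a median of 0.18. Over the 3 comparisons the intervals reached from -1.43 to 1.75 for Tap1 and from -1.57 to 1.66 for Nlrc5, while those of Tapbp reached only from -0.38 to 0.46.

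The effect of Klotho was addressed at each age. Between old AAV-Kl and old GFP mice 0 of 8 genes were called, against 0.0% of all genes, and 0 of 8 had an unadjusted p under 0.05, against 2.15% (edgeR). The groups overlapped for 8 of 8 genes, where 1.68% of all genes had groups that did not. The fitted log2 fold changes lay between 0.15 for Tapbp and 0.67 for Tap1 (95% confidence interval -0.65 to 1.99), with a median of 0.30 against 0.01 over all genes. In 8 of 8 genes, 2 of the 4 old AAV-Kl mice, 2 and 3, were above the highest old GFP mouse, and the other 2 were not. The highest old GFP mouse was old GFP 1 in 8 of 8 genes, and this mouse also had the most liver markers (1103 CPM). The part of liver RNA in these values was not tested. Old AAV-Kl 2 was 1 of the libraries with keratinocyte markers (82.4 CPM, against 4.64 to 8.22 CPM in old GFP mice). Without the 4 libraries rich in these markers, the values of H2-D1, B2m and Tap2 were -0.05, -0.02 and -0.04, and the other 5 stayed above 0. Of these libraries only old AAV-Kl 2 belonged to the compared groups. Keratinocyte content therefore cannot be told apart here from that mouse, which was also the highest of its group in 8 of 8 genes.

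Between oldest-old AAV-Kl and oldest-old GFP mice 0 of 8 genes were called, against 0.0112% of all genes, 0 of 8 had an unadjusted p under 0.05, against 8.08%, and 0 of 8 had groups that did not overlap, against 2.65% (edgeR). The log2 fold changes lay between 0.06 for H2-T23 and 0.61 for Nlrc5, with a median of 0.31 against 0.01 over all genes, and B2m had the lowest p (log2 fold change 0.56, 95% confidence interval -0.26 to 1.37, edgeR adjusted p = 0.733). These positive values rested on 1 mouse. In 8 of 8 genes oldest-old AAV-Kl 2 was above the highest oldest-old GFP mouse and the other 3 AAV-Kl mice were not. Without oldest-old AAV-Kl 2 the log2 fold change was below 0 for 8 of 8 genes, at -0.81 for Tap1, -0.70 for Nlrc5, -0.52 for H2-T23, -0.44 for H2-K1, -0.44 for H2-D1, -0.28 for Tap2, -0.26 for B2m and -0.17 for Tapbp, and again none was called (lowest adjusted p = 0.751 in edgeR).

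The difference in the Klotho effect between the ages was tested directly as an interaction. It was called for 0 of 8 genes, against 0.00562% of all genes, and had an unadjusted p under 0.05 for 0 of 8, against 5.76% (edgeR). The interaction values lay between -0.28 for H2-T23 and 0.31 for B2m, with a median of -0.04, and the widest interval, that of Nlrc5, ran from -1.85 to 1.85.

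**Figure D3:**
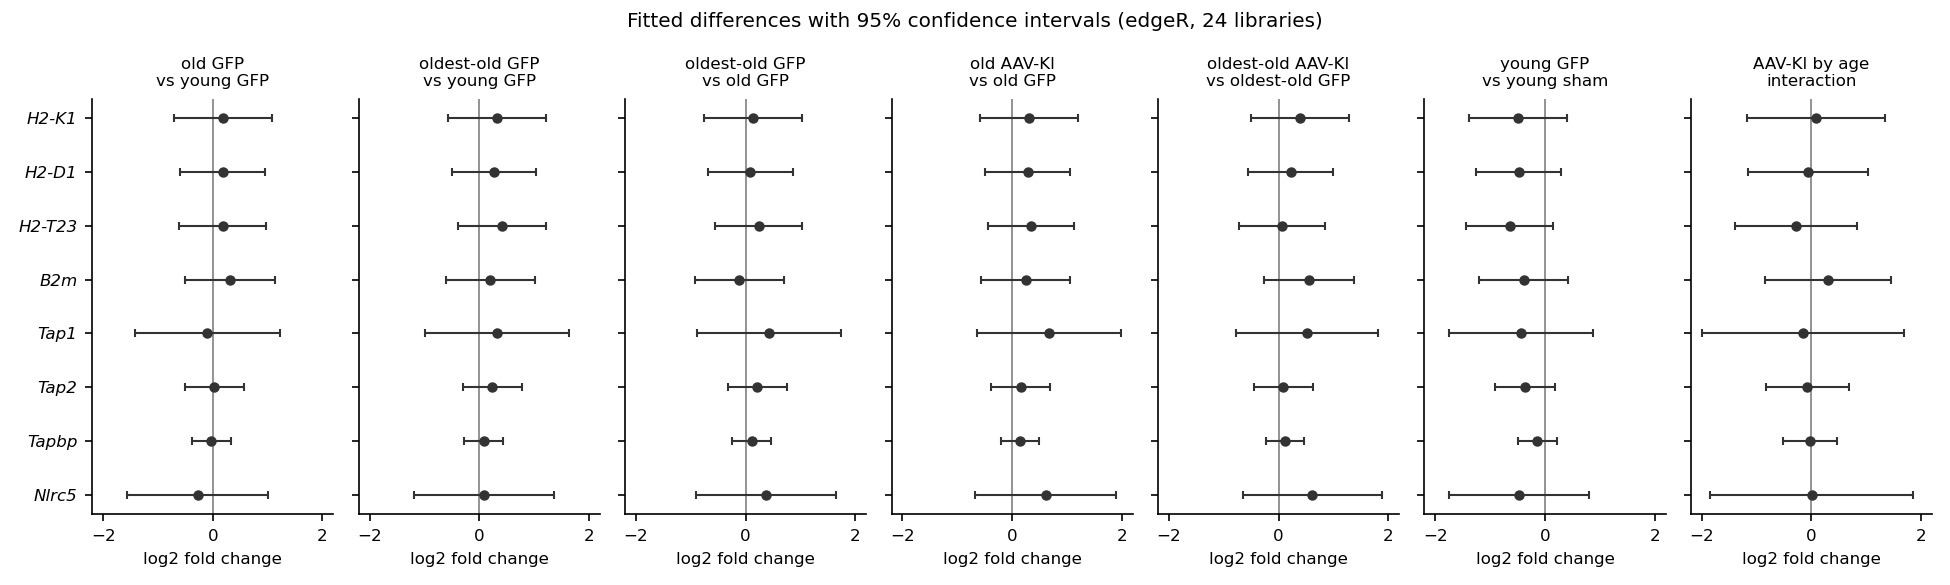
Fitted log2 fold change (horizontal axis) of each class I gene (vertical axis) in the 6 comparisons between groups and in the interaction, with lines for 95% confidence intervals from edgeR. All 56 intervals include 0, and those of Tapbp are the narrowest.

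Young GFP mice were also compared with young sham mice, which sets the GFP vector against a sham treatment at 1 age. Of the 8 genes, 0 were called between them, against 0.472% of all genes, and 0 had an unadjusted p under 0.05, against 13.4% (edgeR). The groups overlapped for 8 of 8 genes, and 9.76% of all genes had groups that did not. All 8 log2 fold changes were below 0, with a median of -0.46 against -0.03 over all genes, and H2-T23 had the lowest p of all 56 tests of the 8 genes (-0.65, 95% confidence interval -1.44 to 0.15, edgeR adjusted p = 0.467). This median was larger in size than that of any comparison by age or Klotho. Markers of T and natural killer cells lay between 4.49 and 28.3 CPM in young sham mice, with a median of 22.1, and between 1.98 and 35.8 CPM in young GFP mice (median 2.11). Macrophage markers lay between 105.4 and 200.9 CPM in young sham and between 64.6 and 105.8 CPM in young GFP mice, and the medians were 108.0 and 36.7 CPM for markers of B and plasma cells and 224.7 and 73.3 CPM for class II genes. The part of these cells in the difference was not tested. A fit left out the 5 libraries rich in T and natural killer cell markers, which leaves 1 young sham and 3 young GFP mice. In it 6 of the 8 log2 fold changes were above 0, from 0.05 for H2-D1 to 0.36 for B2m. The sham mouse left was young sham 1, which had the lowest value of its group in 8 of 8 genes (H2-K1 45.0 CPM, against 88.7 to 99.2 CPM in the other 3), so these signs rest on that mouse.

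Differences between mice of a group were larger for the class I genes than for most genes. The SD of log2 CPM within groups had a median of 0.57 over the 8 genes, against 0.23 over all genes tested. Tap1 (0.92) and Nlrc5 (0.89) exceeded 94.9% and 94.6% of all genes, H2-K1 (0.63) exceeded 88.9%, and Tapbp (0.24) lay near the middle, above 51.6%. Differences between the 6 groups made up 7.07% (Tap1) to 14.3% (Tap2) of the variance, with a median of 9.79%, against 32.7% for all genes. Chance differences between group means add to such shares, and no correction was made for them.

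The 8 genes followed the same mice. For each of the 28 pairs, Pearson's r of log2 CPM over the 24 mice lay between 0.84 (B2m and Tap2) and 0.98 (Tap1 and Nlrc5), with a median of 0.93, and Spearman's rho between 0.79 and 0.96. The permutation p was 1e-05 for 28 of 28 pairs in both measures, the smallest that 100000 permutations can give, and 1e-05 after Benjamini-Hochberg adjustment over the 28 pairs. Without the 2 mice farthest from the median r was 0.73 to 0.98, and without oldest-old AAV-Kl 2 it was 0.78 to 0.98. With the group means removed, r was 0.89 to 0.99 over the 24 mice, so the relation was not only one between group means. Oldest-old AAV-Kl 2 was kept in this calculation, and r was not computed inside single groups. Both values of a pair come from the same library and share its scaling. The mouse that was highest in its group was the same for 8 of 8 genes in young GFP (mouse 3), old GFP (mouse 1), old AAV-Kl (mouse 2) and oldest-old AAV-Kl (mouse 2), for 7 in oldest-old GFP (mouse 4) and for 6 in young sham (mouse 3). Young GFP 4 had the lowest value of all 24 mice and oldest-old AAV-Kl 2 the highest in 8 of 8 genes.

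**Figure D4:**
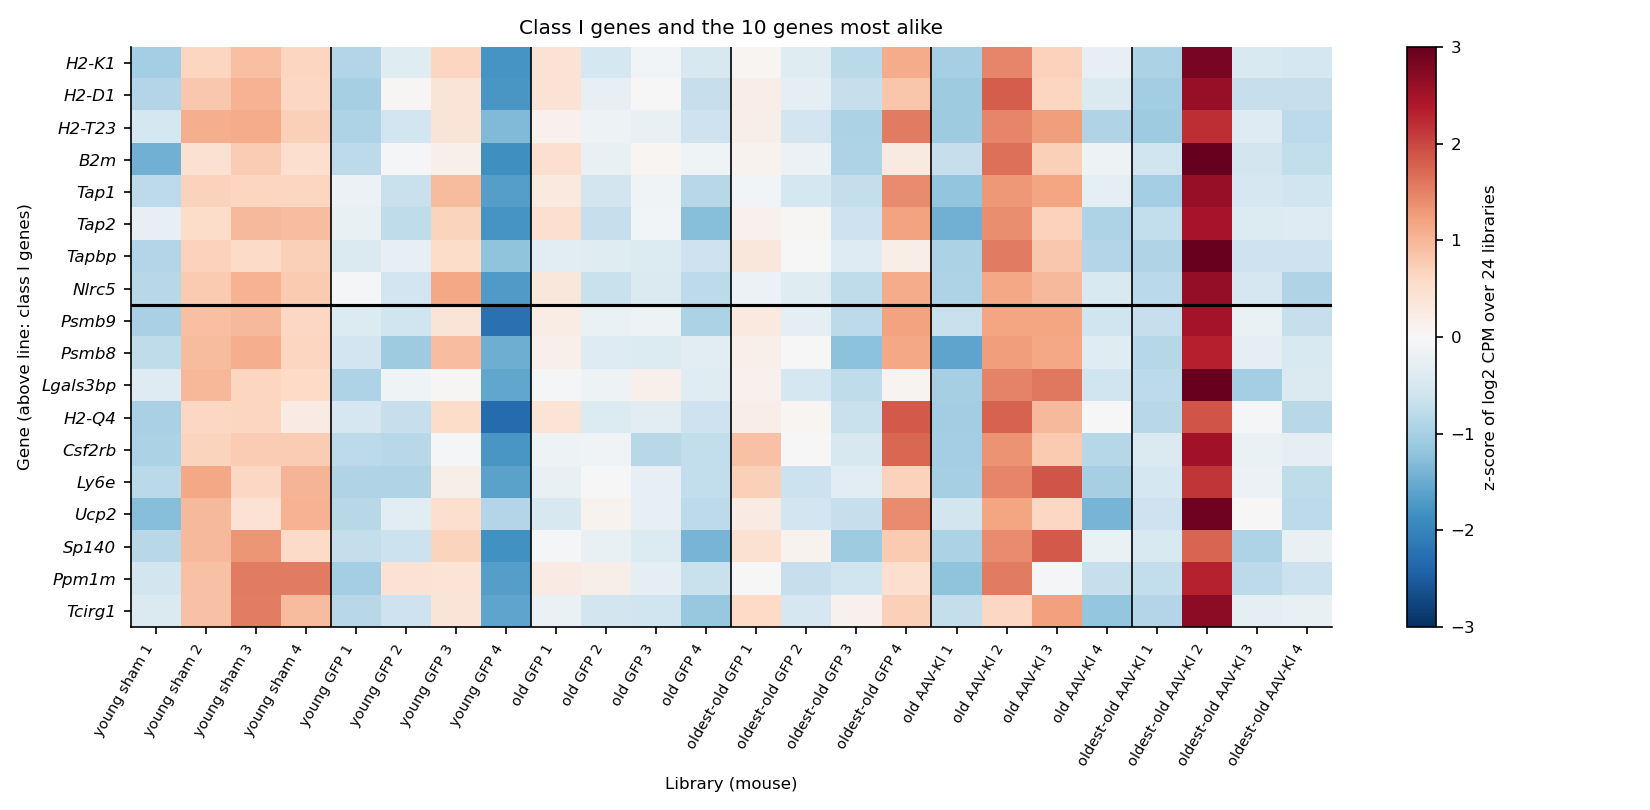
Log2 CPM of the 8 class I genes (above the line) and of the 10 genes most like them (below), each as a z-score over the 24 libraries (color, from blue for low to red for high), with libraries on the horizontal axis in their groups. Most libraries have like colors from top to bottom, and among the 8 class I genes oldest-old AAV-Kl 2 is the highest and young GFP 4 the lowest in each row.

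The 10 other genes whose log2 CPM followed the mean z-score of the 8 genes most closely over the 24 libraries were Psmb9, Psmb8, Lgals3bp, H2-Q4, Csf2rb, Ly6e, Ucp2, Sp140, Ppm1m and Tcirg1. Their r ran from 0.97 for Psmb9 to 0.91 for Tcirg1, and with group means removed from 0.97 for Psmb9 to 0.91 for Ly6e. Psmb9 and Psmb8 encode catalytic subunits of the immunoproteasome and H2-Q4 another heavy chain. Psmb9 shares exonic bases with Tap1, and reads ambiguous between genes were counted on neither. Psmb9 ran from 0.676 CPM in young GFP 4 to 9.14 CPM in oldest-old AAV-Kl 2, and Psmb8 from 1.05 CPM in old AAV-Kl 1 to 6.88 CPM in oldest-old AAV-Kl 2. Among the 17803 genes tested, including the 8, 798 (4.48%) had an r above 0.7.

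The lists of the wider pathway followed the class I genes to different degrees. Of the immunoproteasome, whose subunits interferon induces, 4 of 5 genes had an r above 0.7, with a median of 0.86. Of 14 other heavy chains tested 8 did (median 0.76), of 30 interferon-stimulated genes 16 (0.75) and of 17 transcription regulators 8 (0.52), with Irf1 highest at 0.87. Of 8 genes of class II antigen presentation 4 did (median 0.70). So did 3 of 8 class I receptors tested (0.64) and 1 of 8 interferons and receptor genes tested (0.46). Only 2 of 10 genes of peptide loading and trimming passed 0.7 (median 0.34), with Tapbpl highest at 0.86. The constitutive proteasome subunits and activator that have immunoproteasome counterparts had 0 of 4 (median -0.29), and muscle fiber markers 0 of 10 (-0.37). Over the marker lists, the median r was 0.70 for T and natural killer cells, 0.67 for dendritic cells, 0.65 for macrophages, 0.57 for B and plasma cells, 0.39 for endothelial cells, 0.25 for keratinocytes, 0.13 for liver, 0.04 for red blood cell precursors and 0.03 for fibroblasts. Without oldest-old AAV-Kl 2 the median r was 0.77 for the immunoproteasome, 0.67 for other heavy chains, 0.72 for interferon-stimulated genes, 0.53 for the regulators and 0.12 for loading and trimming. It was 0.64 for class II genes, 0.61 for class I receptors and 0.33 for interferons and their receptors. Among the cell markers it was 0.67 for T and natural killer cells, 0.53 for dendritic cells, 0.52 for macrophages and 0.39 for keratinocytes.

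Oldest-old AAV-Kl 2 stood apart in most lists of the pathway. The 8 genes summed to 977.5 CPM in this mouse, against 250.6, 275.0 and 264.9 CPM in the other mice of its group and at most 608.1 CPM in any other mouse (old AAV-Kl 2). It was above the 3 other mice of its group for 8 of 8 class I genes, 5 of 5 immunoproteasome genes, 12 of 14 other heavy chains, 28 of 30 interferon-stimulated genes, 11 of 17 transcription regulators, 7 of 8 receptors of class I and 8 of 8 genes of class II antigen presentation, against 27.5% of all genes tested. The interferon-stimulated genes summed to 1218 CPM, against 112.7 to 170.2 CPM in the other 3 mice, and the class II genes to 320.1 CPM, against 56.7 to 114 CPM. The GTPases Iigp1 (445.4 CPM), Igtp (359.5 CPM) and Irgm1 (130.8 CPM) made up most of the interferon-stimulated sum, the median gene ratio to the other 3 mice was 2.64, and 10 of the 30 genes were highest of the 24 libraries in this mouse. The constitutive proteasome genes were above in 0 of 4 (274.8 CPM, against 289.1 to 314.2).

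Markers of several other cell types were also high in that mouse. The sum over T and natural killer cell markers was 24.6 CPM, against at most 3.89 CPM in its group, with Cd3e at 3.96 CPM and Cd4 at 5.71 CPM. Macrophage markers summed to 298.0 CPM (60.1 to 126 in the other 3 mice), dendritic cell markers to 23.9 CPM (8.27 to 10.3) and endothelial markers to 1249 CPM (453.7 to 536.8). Of the endothelial sum 839.7 CPM came from Fabp4, and the median ratio of an endothelial marker to the mean of the other 3 mice was 1.18. Keratinocyte markers were at 5.57 CPM, within the range of the group, and muscle fiber markers at 144400 CPM, near the lowest of the group (143200 CPM). In young GFP 3 the T and natural killer cell sum was higher, at 35.8 CPM, while its class I sum was 390.7 CPM, below that of old AAV-Kl 2, with 7.19 CPM of these markers. The part of these cells in the class I values was not tested.

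**Figure D5:**
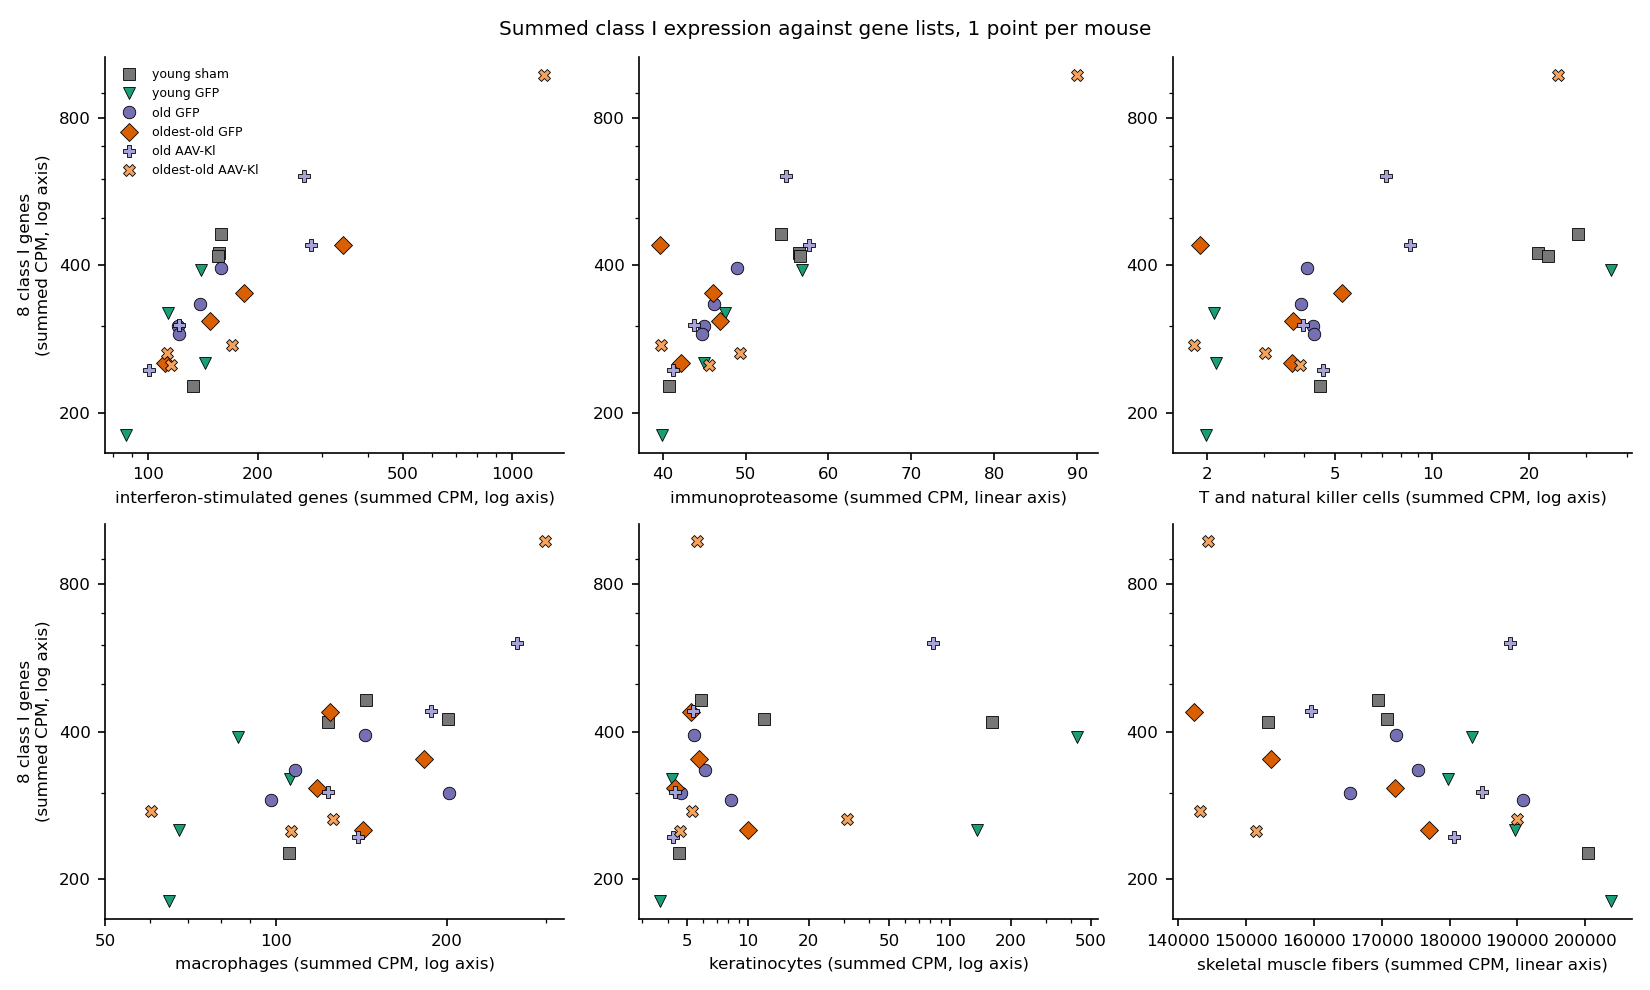
Summed CPM of the 8 class I genes (vertical log axis) against the summed CPM of 6 gene lists (horizontal axes, log or linear as labelled), with 1 point per mouse and a symbol for each group. Oldest-old AAV-Kl 2 is at the top of each panel at 977.5 CPM, and it is the highest mouse for interferon-stimulated genes (1218 CPM), immunoproteasome (90.0 CPM) and macrophage markers (298.0 CPM) but not for T and natural killer cells, keratinocytes or muscle fibers.

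Outside the 8 genes, genes of the pathway were called mainly between oldest-old GFP and young GFP mice, where 14.9% of all genes were called (edgeR, adjusted p under 0.05). The immunoproteasome had 0 of 5 genes called in each comparison. Its subunits Psmb8, Psmb9 and Psmb10 had log2 fold changes of 0.36, 0.60 and -0.05 between oldest-old GFP and young GFP mice, and the subunits of the proteasome activator, Psme1 and Psme2, had -0.29 and -0.08. Psme2 had an unadjusted p under 0.05 between oldest-old AAV-Kl and oldest-old GFP mice (log2 fold change 0.37, edgeR adjusted p = 0.548). Of the 4 constitutive counterparts 0 were called, and Psmb6 and Psme3 had values of -0.05 and 0.11 for age. Psmb6 also had an unadjusted p under 0.05 between these AAV-Kl and GFP mice (log2 fold change 0.11, edgeR adjusted p = 0.548).

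Of 21 other heavy chains listed, 18 had an identifier in the files, 14 passed the filter and 2 rose between young GFP and oldest-old GFP mice, a share close to the 14.9% of all genes called. In this list H2-K2 is annotated as a transcribed pseudogene, and H2-Q5 and H2-T10 as polymorphic pseudogenes. Mr1, which presents vitamin metabolites to mucosal-associated T cells, was at 20.3 to 24.5 CPM in young GFP mice and reached 29.02 to 41.1 CPM in the oldest-old group (log2 fold change 0.52 ± 0.12 SE, edgeR adjusted p = 0.00757). The pseudogene H2-K2 was at 1.76 to 2.76 CPM in young GFP mice and reached 3.05 to 4.74 CPM in the oldest-old group (0.83 ± 0.21, edgeR adjusted p = 0.0119). Its call was lost without oldest-old GFP 4 (edgeR adjusted p = 0.0511). Reads of H2-K2 that also map to similar genes of its family were not counted. The groups did not overlap for either gene, as for 18.4% of all genes. Mr1 was also the only heavy chain called between old GFP and young GFP mice (0.45 ± 0.12, edgeR adjusted p = 0.0376), a call lost in 8 of 8 fits that left out 1 mouse of these groups.

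Among 10 genes of peptide loading and trimming, 1 was called. Lnpep, an aminopeptidase of endosomes that trims peptides, rose between young GFP and oldest-old GFP mice (0.38 ± 0.11, edgeR adjusted p = 0.0195), a call lost in 4 of 8 fits that left out 1 mouse (without oldest-old GFP 4 or young GFP 1, 2 or 3, adjusted p up to 0.112). Among 17 transcription regulators 2 rose and 1 fell between the same groups, where 14.9% of all genes were called. Rfx5 and Rfxap encode subunits of the RFX complex, which binds MHC promoters together with NLRC5, and they moved in opposite directions. Rfx5 was at 4.32 to 4.96 CPM in young GFP mice and reached 6.68 to 9.72 CPM in the oldest-old group (0.79 ± 0.14, edgeR adjusted p = 0.000763), and Rfxap was at 15.8 to 16.9 CPM and 11.7 to 14.6 CPM (-0.35 ± 0.07, edgeR adjusted p = 0.00345). Rela, a subunit of NF-kappaB, rose as well (0.25 ± 0.06, edgeR adjusted p = 0.0117). These 3 calls were kept in 8 of 8 fits that left out 1 mouse, and that of Rela was lost with the compared groups alone and with reads of the first strand.

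Of 30 interferon-stimulated genes 3 rose between young GFP and oldest-old GFP mice, against 14.9% of all genes called in either direction. A value above 0 was found in 28 of the 30 and in 53.8% of all genes, with a median of 0.71 against 0.03 over all genes. For old AAV-Kl against old GFP the count was 29 of 30 (median 0.65), against 53.0% of all genes. For oldest-old AAV-Kl against oldest-old GFP it was 16. For young GFP against young sham it was 5 (median -0.45), against 45.1% of all genes. Genes of this list can vary together between mice, so these signs are not separate observations. The list summed to a median of 155.8 CPM in young sham, 126.4 CPM in young GFP and 165.7 CPM in oldest-old GFP mice. Its sum ran from 120.7 to 158.0 CPM in old GFP and from 100.4 to 279.7 CPM in old AAV-Kl mice. These 2 groups overlapped, and 0 of the 30 genes were called between them. The summed level of these genes was 343.4 CPM in oldest-old GFP 4 and 111.4 to 183.3 CPM in the other 3 oldest-old GFP mice. Cxcl10, a chemokine for T cells, was at 0.164 to 0.410 CPM in young GFP mice and reached 0.579 to 3.52 CPM in the oldest-old group (2.60 ± 0.51, edgeR adjusted p = 0.00217), and it was also called between old GFP and young GFP mice (2.38 ± 0.51, edgeR adjusted p = 0.00956), a call lost without the 4 libraries rich in keratinocyte markers. Rsad2 (1.40 ± 0.40, edgeR adjusted p = 0.0237) and Ifit2 (0.83 ± 0.24, edgeR adjusted p = 0.0275), which encode antiviral proteins, lost their calls in 6 and 4 of 8 fits that left out 1 mouse. Both were lost without oldest-old GFP 1 or 4 or young GFP 2 or 4, and Rsad2 also without young GFP 1 or 3, with adjusted p up to 0.143 for Rsad2 and 0.0918 for Ifit2.

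Of 10 interferons and receptor genes 8 were tested and 2 fell between young GFP and oldest-old GFP mice, again beside 14.9% of all genes called. They were Ifngr2, a chain of the interferon gamma receptor (-0.53 ± 0.16, edgeR adjusted p = 0.0321), and the kinase Jak1 (-0.17 ± 0.05, edgeR adjusted p = 0.0311). The call of Ifngr2 was lost without oldest-old GFP 4 or young GFP 1, 2 or 4 (adjusted p up to 0.0908), and that of Jak1 without oldest-old GFP 2 or young GFP 4 (up to 0.0806). Of 11 class I receptors 8 were tested and 1, Klra2, was called, with 0 to 0.0482 CPM in young GFP and 0 to 0.351 CPM in oldest-old GFP mice, and that call was kept in only 2 of 8 fits that left out 1 mouse (those without oldest-old GFP 2 or young GFP 2). Of 8 class II genes 0 were called, and Cd74 and H2-Ab1 had values of -0.17 and -0.21 for age. Outside the GFP age comparisons none of the genes in these lists was called. Without the 4 libraries rich in keratinocyte markers, and likewise without the 5 rich in T and natural killer cell markers, the oldest-old against young calls of Mr1, Lnpep, Rsad2, Ifit2, Ifngr2, Jak1 and Klra2 were lost, and those of H2-K2, Rfx5, Rfxap, Rela and Cxcl10 were kept. The first fit lacked young GFP 1 and 3 and the second young GFP 3, and calls over all genes fell from 2649 to 775 and 1813. Marker content and the smaller young group cannot be told apart here.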

How the data were processed

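RNA-seq libraries of gastrocnemius muscle from 24 mice were used, with 4 mice in each of 6 groups taken from the sample labels. The authors aligned reads with STAR to GRCm38/mm10 and deposited raw counts of reads per gene, from which the unstranded column was taken. Annotation release and read length are not given in the sources used here. Of 55385 gene identifiers, 54487 matched GENCODE M21 exactly and 657 without the version. The stated depth is reads on genes, without the unmapped, multimapping (9.78% to 12.2%), ambiguous (5.36% to 5.90%) and no-feature rows. Reads that mapped to several places, as those of near-identical heavy chains do, were not counted on a gene.

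Counts were scaled by TMM, filtered with filterByExpr and fitted across all 24 libraries with edgeR 4.0.16 (glmQLFit and glmQLFTest, R 4.3.3), with 1 coefficient per group and no covariate. Genes with a Benjamini-Hochberg adjusted p under 0.05 over the 17803 genes left were called. Log2 CPM used a prior count of 2. Permutation tests were two-sided. The p-values measure the spread between these mice. DESeq2 1.42.0, other scalings, filters and strands, a replicate block and fits without 1 library were tried as alternatives, and the test was tried on simulated data. Replicate numbers did not pair the mice. All 8 genes were named, and from each list up to 4 called genes with the smallest p, or the 2 with the highest mean where none was called. The genes, lists and motifs were chosen with earlier results of these data known.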

Additional observations from a re-analysis of the deposited data

Results flagged for a closer look

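In 12 of 48 checks, each of 1 gene in 1 group of 4 mice, a single mouse lay farther from the others, on log2 CPM, than Dixon's 95% critical value for 4 samples allows, and chance flags about 1 in 20 groups. The genes move together, so the 12 are not separate observations, and they fall on 2 mice.

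Young sham 1 was low for 5 genes. It had 45.0 CPM of H2-K1 where the other young sham mice had 88.7 to 99.2 CPM. B2m was at 77.6 CPM (others 157.5 to 176), Tap1 at 3.52 CPM (8.17 to 8.44), Tapbp at 22.4 CPM (28.1 to 28.8) and Nlrc5 at 2.30 CPM (5.83 to 6.79).

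Oldest-old AAV-Kl 2 was high for 7 genes. It had 218.0 CPM of H2-K1 (46.3 to 56.8 CPM in the other oldest-old AAV-Kl mice), 216.0 CPM of H2-D1 (59.3 to 67.1) and 425.0 CPM of B2m (101 to 107.6). Tap1 was at 26.2 CPM (3.09 to 4.18), Tap2 at 12.9 CPM (5.72 to 6.25), Tapbp at 43.7 CPM (22.3 to 23.3) and Nlrc5 at 17 CPM (2.21 to 2.80). H2-T23 was also highest in this mouse, at 18.7 CPM.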

How the results depend on the processing

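The count of called class I genes was 0 of 8 in each comparison under each alternative run, DESeq2 included. Of 1120 log2 fold changes refitted, 109 had the opposite sign to the reported value, 5 had an unadjusted p under 0.05 and 0 passed the adjusted threshold (lowest adjusted p = 0.209, edgeR). Where 1 mouse left out turned a sign, the log2 fold changes over the fits without 1 mouse ran as follows. For old GFP against young GFP, they were H2-K1 -0.014 to 0.45, Tap1 -0.36 to 0.39, Tap2 -0.11 to 0.17, Tapbp -0.096 to 0.019 and Nlrc5 -0.55 to 0.25, turned by young GFP 2, 3 or 4 or old GFP 1 or 4. For oldest-old GFP against young GFP, they were Tap1 -0.27 to 0.82 and Nlrc5 -0.37 to 0.62, turned by oldest-old GFP 4 or young GFP 2 or 4. For oldest-old GFP against old GFP, they were H2-K1 -0.13 to 0.28, H2-D1 -0.070 to 0.19, H2-T23 -0.11 to 0.40, B2m -0.20 to 0.0011, Tap1 -0.15 to 0.63 and Nlrc5 -0.080 to 0.62, turned by oldest-old GFP 4 or 3 or old GFP 4. For old AAV-Kl against old GFP, they were H2-D1 -0.051 to 0.47, B2m -0.023 to 0.42 and Tap2 -0.044 to 0.30, turned by old AAV-Kl 2. For oldest-old AAV-Kl against oldest-old GFP, they were H2-K1 -0.44 to 0.67, H2-D1 -0.44 to 0.42, H2-T23 -0.52 to 0.41, B2m -0.26 to 0.77, Tap1 -0.81 to 1.10, Tap2 -0.28 to 0.23, Tapbp -0.17 to 0.22 and Nlrc5 -0.70 to 1.06, turned by oldest-old AAV-Kl 2 for 8 of 8 genes, and for H2-T23 also by oldest-old GFP 2 or 3 and for Tap2 by oldest-old GFP 3. For the interaction, they were H2-K1 -0.75 to 0.36, H2-D1 -0.73 to 0.27, H2-T23 -0.87 to 0.069, B2m -0.51 to 0.58, Tap1 -1.48 to 0.43, Tap2 -0.44 to 0.13, Tapbp -0.32 to 0.089 and Nlrc5 -1.31 to 0.46, turned for at least 1 gene by each mouse of the 4 groups except old GFP 2 and 3.

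Other alternatives also turned signs, and the cause was not tested. With reads of the second strand, Tap1 had 0.044 for old GFP against young GFP, and Tap2 0.0025 and Tapbp 0.055 for the interaction. With reads of the first strand, Tap2 had -0.029 for old GFP against young GFP and Nlrc5 -0.033 for the interaction. With the replicate number as a block, H2-T23 had -0.092 for oldest-old AAV-Kl against oldest-old GFP, H2-K1 -0.003 and Nlrc5 -0.14 for the interaction, and 0 of 8 genes were called in each comparison. The numbers do not pair the mice, since deviations of same-numbered mice correlated at -0.16 to 0.013 on average.

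The alternatives without libraries rich in markers were chosen after seeing the data. Among old AAV-Kl and old GFP mice the keratinocyte markers removed only old AAV-Kl 2. Among oldest-old AAV-Kl and oldest-old GFP mice the T and natural killer cell markers removed only oldest-old AAV-Kl 2. Without those rich in keratinocyte markers, old GFP against young GFP gave Tap1 0.71, Tapbp 0.043 and Nlrc5 0.59, old AAV-Kl against old GFP gave H2-D1 -0.047, B2m -0.020 and Tap2 -0.041, and the interaction gave H2-D1 0.28, Tap1 0.15, Tap2 0.13 and Tapbp 0.088. Without those rich in T and natural killer cell markers, old GFP against young GFP gave Tap1 0.40, Tapbp 0.027 and Nlrc5 0.26. The same alternative gave, for oldest-old AAV-Kl against oldest-old GFP, H2-K1 -0.44, H2-D1 -0.44, H2-T23 -0.52, B2m -0.25, Tap1 -0.80, Tap2 -0.27, Tapbp -0.17 and Nlrc5 -0.70. For young GFP against young sham, where 1 sham mouse remained and was assumed to vary like the other groups, it gave H2-K1 0.065, H2-D1 0.051, B2m 0.36, Tap1 0.060, Tapbp 0.068 and Nlrc5 0.16, and for the interaction H2-K1 -0.74, B2m -0.50 and Nlrc5 -1.30.

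Over all genes, counts of calls moved more. The 837 calls for old GFP against young GFP became 156 without keratinocyte-rich libraries and 1275 with the compared groups alone, and the 2649 for oldest-old GFP against young GFP became 775 and, with library size alone, 3097. The 84 for young GFP against young sham became 1 without young sham 2, 0 without T-cell-rich libraries and 289 with DESeq2, which also gave 126 in place of 1 for oldest-old GFP against old GFP and 26 in place of 2 for oldest-old AAV-Kl against oldest-old GFP. Depth limits Nlrc5 most, with 57 reads in its lowest library.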
